A study of Homo sapiens with 26 samples.

Results

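The promoters of 37 genes that act at the G1/S transition and in DNA replication were followed through p53 activation in HCT116 cells, a human colorectal carcinoma line with wild-type p53. The genes were listed by name, with earlier results of these data known, and a member's promoter was found by position: an H3K27ac peak had to overlap the window from 1000 bp upstream to 200 bp downstream of a GRCh37 start site of the gene. H3K27ac is an acetyl mark on histone H3 at active promoters and enhancers, and H3K4me1 is a methyl mark that flanks active promoters and covers enhancers. Of 87608 H3K27ac regions, made by merging the overlapping peaks of 10 lists, 18757 were called in every list, and 10615 of these lay at promoters of protein-coding genes. All 37 members had such a region, and 36 had it in every list and were tested.

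Cells were either wild type (WT) or the HCT116_RAD21 line, called the RAD21 line here. They received DMSO, the vehicle, as the 0 h control, or Nutlin-3a, which blocks the binding of MDM2 to p53 and so activates p53. H3K27ac lists exist for WT cells at 0, 1 and 10 h and for the RAD21 line at 0 and 1 h, and H3K4me1 lists for WT cells at 0, 1 and 10 h, with 2 replicates per group. According to the study's methods, the RAD21 line carries a degron on RAD21, a cohesin subunit, through which auxin removes the protein; the labels name no auxin, while the peak names of its lists carry the tag KD. The paper describes H3K27ac libraries of this line at 0 and 1 h as depleted of RAD21, by auxin given before Nutlin-3a. The line and that depletion cannot be told apart here.

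The E2F transcription factors drive a wave of transcription at the G1/S transition, and the retinoblastoma family restrains them. Once licensing factors have loaded the MCM helicase at origins, CDC45, GINS and the polymerases turn it into moving replication forks, for which ribonucleotide reductase, thymidylate synthase and thymidine kinase provide the nucleotides. Active p53 induces the CDK inhibitor p21, encoded by CDKN1A, which keeps the retinoblastoma family active and lowers the output of these same genes through E2F and DREAM complexes.

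RefSeq promoter sequences (250 bases before to 50 after the start, from a GRCh38.p14 table) were found for 33 of the 37 genes, and each of the 33 matched GRCh37 exactly. Not in the table were E2F8, MCM5, CCNE2 and MCM4. Shown are the 8 members that head the list of largest changes against their error below, from 120 bases before the start to 20 after it, 5′ to 3′ on the gene's strand, with E2F letters (TTTCCCGC, TTTCGCGC, TTTGGCGC or TTTGCCGC, either strand) and CCAAT boxes (either strand) in capitals.
MCMBP, chr10:121632336-121632475 (GRCh37, minus strand): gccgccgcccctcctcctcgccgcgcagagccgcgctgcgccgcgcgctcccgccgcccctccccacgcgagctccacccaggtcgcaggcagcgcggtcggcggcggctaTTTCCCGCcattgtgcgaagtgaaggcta
RBL1, chr20:35724381-35724520 (GRCh37, minus strand): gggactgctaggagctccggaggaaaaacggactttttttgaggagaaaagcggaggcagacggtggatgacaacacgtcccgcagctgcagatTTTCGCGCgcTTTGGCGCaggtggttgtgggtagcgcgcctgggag
TYMS, chr18:657533-657672 (GRCh37, plus strand): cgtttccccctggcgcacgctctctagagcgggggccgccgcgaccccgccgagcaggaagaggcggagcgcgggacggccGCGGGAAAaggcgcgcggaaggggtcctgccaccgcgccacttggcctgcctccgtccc
MCM3, chr6:52149521-52149660 (GRCh37, minus strand): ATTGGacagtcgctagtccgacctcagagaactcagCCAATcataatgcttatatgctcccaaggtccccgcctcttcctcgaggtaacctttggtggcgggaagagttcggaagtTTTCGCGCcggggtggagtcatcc
MCM10, chr10:13203438-13203577 (GRCh37, plus strand): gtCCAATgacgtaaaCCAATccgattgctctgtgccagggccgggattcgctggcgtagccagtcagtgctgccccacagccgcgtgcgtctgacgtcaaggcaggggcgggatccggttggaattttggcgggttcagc
MCM2, chr3:127317134-127317273 (GRCh37, plus strand): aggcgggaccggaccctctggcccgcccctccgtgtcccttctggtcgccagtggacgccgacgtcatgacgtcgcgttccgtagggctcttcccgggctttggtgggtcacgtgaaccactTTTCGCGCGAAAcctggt
GINS2, chr16:85722541-85722680 (GRCh37, minus strand): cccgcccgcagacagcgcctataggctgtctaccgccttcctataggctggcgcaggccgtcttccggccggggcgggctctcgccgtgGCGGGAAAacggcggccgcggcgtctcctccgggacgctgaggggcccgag
MYBL2, chr20:42295634-42295773 (GRCh37, plus strand): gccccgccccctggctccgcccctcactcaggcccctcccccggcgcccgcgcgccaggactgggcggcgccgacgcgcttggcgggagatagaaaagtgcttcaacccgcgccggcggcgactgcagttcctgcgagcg

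The 8 windows are 55.0% to 76.4% G and C. MCMBP, TYMS, GINS2, RBL1, MCM3 and MCM2 hold 1 or 2 E2F matches in them, and in MCM2 the matches on the 2 strands overlap. MCM10 holds CCAAT boxes and no E2F match, and MYBL2 holds neither. Only the exact letters given were searched, so other forms of an E2F site were not counted. The stretches of MCM10 and MYBL2 both hold ttggcggg, which is not among the searched letters. Over the whole RefSeq window, 20 of the 33 members (60.6%) held an E2F match, as did 17 of 46 other G1/S and replication genes (37%), 5.47% of protein-coding genes in the table and 3.31% of its 35116 promoters. A CCAAT box stood in 19 of 33 members (57.6%) and a GC box (GGGCGG, either strand) in 24 (72.7%). Of all promoters 34.6% and 45.0% held them. Counted per gene as the members are, 42.5% and 65.1% of protein-coding genes did, and 52.2% and 87.0% of the 46 other genes. The GC box share of the members thus lay near that of protein-coding genes. The letters TTTGAA, searched on either strand as the CHR element of G2/M genes, stood in 1 member (3.03%), and TATAAA in 3 (9.09%). Of all promoters 15.2% and 11.5% held them, and of protein-coding genes 15.9% and 12.4%.

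Within a list, regions were ranked by the deposited −log10 p-value of their strongest peak, and the percentile is the rank among the 18757 regions called in every list. For tests, ranks were turned into normal scores, on which the middle region of a list has a score of 0, and a change is a difference between mean scores. Such changes are relative to the other regions, so a gain or loss shared by the whole genome does not show. The cells were measured in bulk, and fewer cells with the mark cannot be told apart from less mark per cell. The lists do not give read depth; they hold 31640 to 49127 H3K27ac peaks and 84492 to 92943 H3K4me1 peaks. Of 11 epithelial marker promoters, 7 had an H3K27ac peak in every list (EPCAM, CDH1, KRT8, KRT18, KRT19, CDX2 and CLDN4), and KRT20, VIL1, CDX1 and LGR5 had none. Of 11 annotated promoters of markers of other cell types, ACTA2 alone had a peak. The markers moved too: the median percentile of the 7 epithelial promoters was 47.9 and 55.7 in WT cells at 0 h, 57.0 and 72.1 at 1 h and 69.9 and 66.3 at 10 h, and ACTA2 stood at 29.2 and 40.2, then 58.3 and 55.0, then 46.8 and 47.4. The epithelial median of the RAD21 line was 68.6 and 68.8 and then 57.5 and 62.3, and ACTA2 stood at 39.5 and 38.9 and then 51.0 and 48.8. Their part in the results was not tested.

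The H3K27ac lists are not of a single make. Peak names of 3 lists (WT 0 h replicates 1 and 2, WT 1 h replicate 1) lack the word input, which the other 7 carry, and these 3 lists alone hold mitochondrial peaks (4, 3 and 3). Both WT 0 h lists are of the first kind and both WT 10 h lists of the second. For WT 10 h against 0 h peak-name form and treatment thus cannot be told apart, whichever value is ranked. The pileup (the number of fragments over the summit, recovered from each peak's fold and p-value) does not use the local background and was ranked as a second measure. In the WT 10 h lists 3.82% and 1.62% of pileups were whole numbers to within 0.02 fragments, against 100% in the other 8 lists, so the 10 h pileups were scaled. Promoters of known p53 targets were read to check the treatment. MDM2 stood at the percentiles 93.8 and 91.8 in WT cells at 0 h and at 98.0 and 98.5 at 1 h (change 0.65 ± 0.16 (SE), limma adjusted p = 0.00984). At 10 h it stood at 95.6 and 90.6, below 1 h (−0.60 ± 0.16, adjusted p = 0.0131) and not called against 0 h (0.05 ± 0.16, adjusted p = 0.858). CDKN1A stood at 43.9 and 51.7 at 0 h, 52.4 and 74.5 at 1 h and 64.1 and 69.2 at 10 h (0.41 ± 0.16, adjusted p = 0.0722 at 1 h; 0.49 ± 0.16, adjusted p = 0.054 at 10 h).

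After 1 h of Nutlin-3a the replication promoters of WT cells moved up within the list, and after 10 h they lay below their starting place. The median percentile of the 36 members was 73.5 and 75.6 at 0 h, 88.5 and 90.2 at 1 h, and 50.0 and 51.1 at 10 h. In the RAD21 line it went from 72.7 and 71.4 at 0 h to 87.4 and 88.1 at 1 h. The median of all protein-coding promoters lay between 64.7 and 68.2 in the 10 lists. The medians of the 3 WT times did not overlap between lists.

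**Figure D1:**
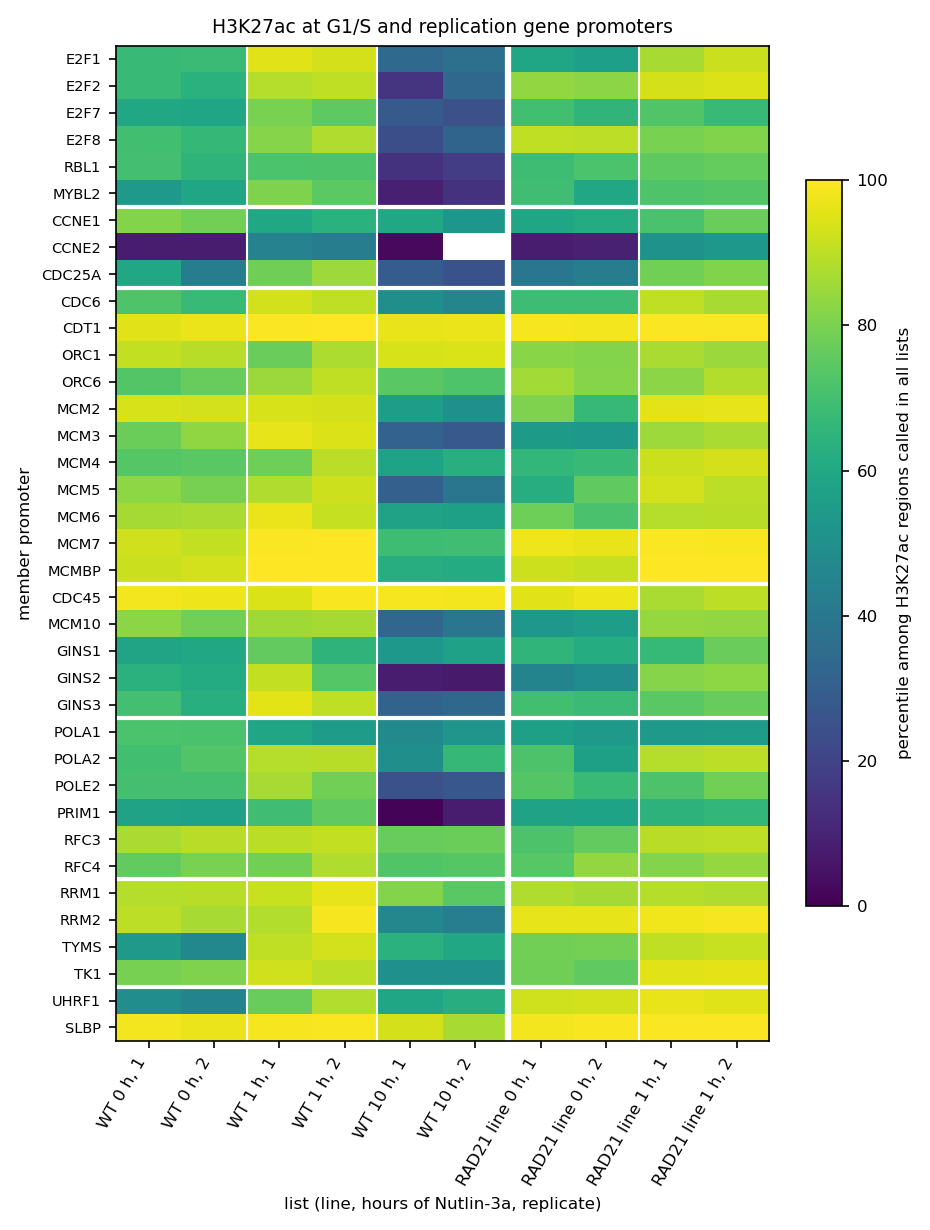
Percentile of each of the 37 promoters (rows, by role) in each of the 10 H3K27ac lists (columns), as a colour scale from 0 to 100. White marks a promoter whose merged region holds no peak in that list. The WT 1 h and RAD21 1 h columns are the brightest, and the only white cell is CCNE2 in WT 10 h replicate 2. The WT 10 h columns hold the lowest values, such as 0.973 for PRIM1 in replicate 1. That value comes from a peak in its merged region but outside its promoter window.

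In WT cells at 1 h against 0 h, 20 of 36 member promoters rose and 2 fell, where 14.3% of all 18757 regions rose and 14.8% fell. The median change of the members was 0.50 and that of all regions −0.01. At 10 h against 0 h none of the 36 rose in the limma fit (2 did at an unadjusted p under 0.05) and 26 fell, where 9.7% of all regions rose and 8.56% fell. The median change was −0.84, against −0.04 for all regions. From 1 h to 10 h, 1 promoter rose (ORC1) and 31 fell, with a background of 15.8% and 16.5%, and the median change was −1.44 against 0.02. The 3 comparisons share libraries pairwise and are not independent. In the RAD21 line at 1 h against 0 h, 18 rose and 2 fell (background 14.4% and 13.4%), with a median of 0.39 against 0.04.

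When ranked by pileup, 27 members were higher and 3 lower after 1 h in WT cells, where 22.3% and 22.9% of all regions were. At 10 h 0 and 27 were (background 8.83% and 8.18%), from 1 h to 10 h 1 and 32 (25.5% and 23.6%), and in the RAD21 line 24 and 2 (26.8% and 22.1%). Among lists of 1 peak-name form, 21 members were higher and 4 lower in WT 1 h replicate 1 against 0 h (background 15.8% and 16.3%), and 1 was higher and 31 were lower at 10 h against WT 1 h replicate 2 (17.4% and 16.4%). In these fits the lone 1 h list is assumed to vary like the other groups. Ranks by the deposited fold called no promoter at 1 h in either line (unadjusted: 9 higher and 2 lower in WT cells, 10 and 0 in the RAD21 line), and 0% of all regions. At 10 h they called 1 higher and 16 lower, where 10.1% and 9.58% of all regions were.

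**Figure D2:**
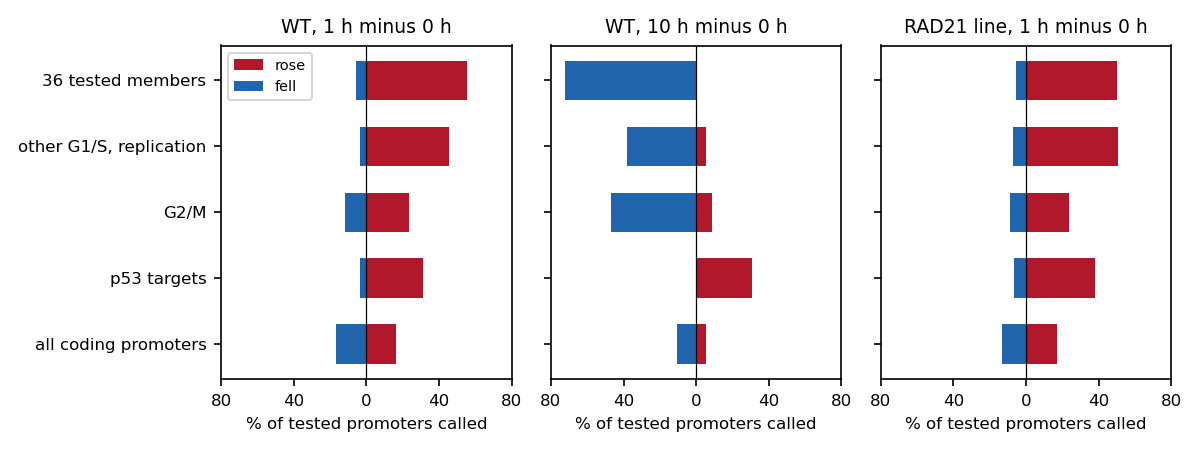
Percent of promoters called higher and lower (adjusted p under 0.05) in WT cells at 1 h and at 10 h and in the RAD21 line at 1 h, each against 0 h (bars to the right and to the left of 0), for the 36 tested members, the other G1/S and replication genes, G2/M genes, p53 targets and all protein-coding promoters. The members have 55.6% higher at 1 h and 72.2% lower at 10 h in WT cells, where all protein-coding promoters have 16.6% and 10.4%.

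Placed among all 18757 regions, of which they are 36, the members gathered at the low end after 10 h. Of the 100 regions with the lowest change at 10 h against 0 h, 9 were members, and of the lowest 500, 19 were. From 1 h to 10 h the numbers were 15 and 23. At the high end at 1 h they were 3 and 7 in WT cells and 1 and 9 in the RAD21 line.

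**Figure D3:**
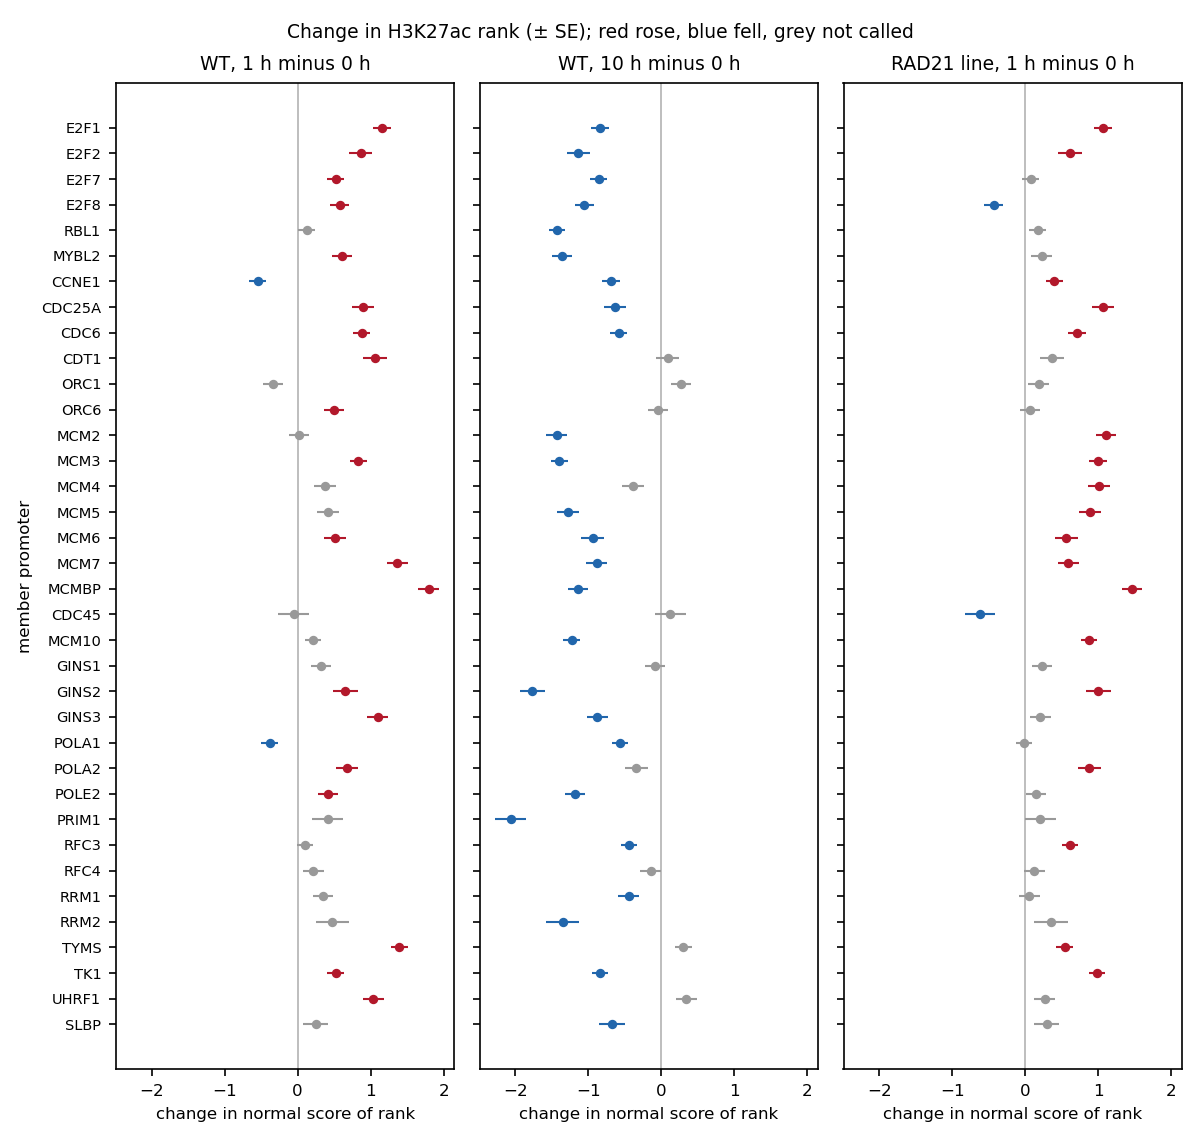
Change in normal score with its SE for each of the 36 tested promoters, for WT 1 h against 0 h, WT 10 h against 0 h and RAD21 line 1 h against 0 h. In WT cells the 1 h points run from −0.55 (CCNE1) to 1.80 (MCMBP) and the 10 h points from −2.06 (PRIM1) to 0.34 (UHRF1).

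Among the regulators of the wave (E2F1 and E2F2, activating E2Fs; E2F7 and E2F8, repressing E2Fs, of which E2F7 is also a p53 target; RBL1, the pocket protein p107; MYBL2, the B-MYB transcription factor), 5 of 6 rose at 1 h in WT cells and 6 of 6 fell at 10 h. Beside these counts and those by role below, 14.3% of all regions rose and 14.8% fell at 1 h in WT cells. At 10 h 8.56% fell, and at 1 h in the RAD21 line 14.4% rose and 13.4% fell. The E2F1 promoter stood at 67.5 and 68.3 at 0 h, 95.7 and 93.6 at 1 h and 34.0 and 37 at 10 h in WT cells, and at 58.6 and 56.5 and then 86.9 and 91.8 in the RAD21 line. The lists of the 3 WT times did not overlap. The change was 1.16 ± 0.12 (SE, limma adjusted p = 1.20e-04) at 1 h and −0.84 ± 0.12 (adjusted p = 0.00124) at 10 h, and 1.07 ± 0.12 (adjusted p = 7.78e-05) in the RAD21 line.

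RBL1 stood at 70.0 and 64.9 at 0 h, 71.6 and 72.1 at 1 h and 14.8 and 18.2 at 10 h in WT cells, and between 68.8 and 76.5 in the 4 lists of the RAD21 line. It was low in the 10 h lists alone (−1.43 ± 0.11, adjusted p = 3.23e-05), and its 1 h change was 0.12 ± 0.11 (adjusted p = 0.437). MYBL2 stood at 53.8 and 59.1, then 80.8 and 74.8, then 8.86 and 14.8 in WT cells, and at 69.4 and 60.1, then 72.6 and 73.2 in the RAD21 line. Its 1 h change in WT cells was 0.61 ± 0.14 (adjusted p = 0.00644) and its 10 h change −1.36 ± 0.14 (adjusted p = 1.27e-04). E2F2 and E2F7 also rose at 1 h (0.87 ± 0.16 and 0.52 ± 0.12) and fell at 10 h (−1.14 ± 0.16 and −0.86 ± 0.12).

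E2F8 was called in opposite directions at 1 h in the 2 lines. In WT cells it stood at 69.6 and 66.6 at 0 h, 81.9 and 88.2 at 1 h and 23.9 and 32.4 at 10 h, and in the RAD21 line at 90.4 and 89.9 and then at 79.9 and 81.0. The 1 h change was 0.58 ± 0.13 (adjusted p = 0.00522) in WT cells and −0.43 ± 0.13 (adjusted p = 0.0233) in the RAD21 line, a call that was lost without any 1 of its 4 lists. The difference between the lines was called (−1.01 ± 0.18, adjusted p = 0.00175).

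Cyclin E, encoded by CCNE1 and CCNE2, starts S phase with CDK2, and the phosphatase CDC25A activates that kinase. CDC25A followed the common course in WT cells, with 60.1 and 41.9 at 0 h, 78.5 and 85.2 at 1 h and 29.1 and 25.1 at 10 h (0.89 ± 0.15, adjusted p = 0.00122, and −0.64 ± 0.15, adjusted p = 0.0133). CCNE1 did not: it went from 81.4 and 78.9 at 0 h to 59.8 and 63.8 at 1 h and 60 and 52.7 at 10 h, so that both later times were below the control (−0.55 ± 0.12, adjusted p = 0.00476, and −0.69 ± 0.12, adjusted p = 0.00296). In the RAD21 line CCNE1 rose at 1 h, from 58.6 and 61.4 to 71.4 and 77.1 (0.40 ± 0.12, adjusted p = 0.0237).

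The CCNE2 region, which also covers the promoter of NDUFAF6, was called in 9 lists and was not tested. It stood at 7.68 and 7.91 at 0 h, 44.2 and 42.4 at 1 h and 2.42 in WT 10 h replicate 1, and had no peak in WT 10 h replicate 2. In the RAD21 line it stood at 7.69 and 9.32 at 0 h and at 51.3 and 53.2 at 1 h. CCNE2 was thus the weakest of the 37 promoters at 0 h in both lines, and in each line both 1 h lists lay above both 0 h lists.

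The licensing factors load the MCM2 to MCM7 helicase onto origins: ORC1 and ORC6 belong to the origin recognition complex, CDC6 and CDT1 bring the helicase to it, and MCMBP binds MCM proteins off the chromatin. Of these 11 promoters, 7 rose at 1 h in WT cells and 7 fell at 10 h, none fell at 1 h in either line, and 8 rose in the RAD21 line. At 1 h MCMBP had the largest change of all members. It stood at 91.8 and 93.3 at 0 h, 100.0 and 99.9 at 1 h and 62.3 and 61.5 at 10 h in WT cells, and at 92.2 and 91.3 and then 99.7 and 99.8 in the RAD21 line. Every 1 h list of either line thus held it among its strongest regions. The changes were 1.80 ± 0.14 (adjusted p = 4.29e-05) at 1 h, −1.14 ± 0.14 (adjusted p = 4.61e-04) at 10 h and 1.47 ± 0.14 (adjusted p = 2.52e-05) in the RAD21 line.

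MCM3 stood at 77.5 and 83.3 at 0 h, 96.2 and 94.7 at 1 h and 31.3 and 28.0 at 10 h in WT cells, and at 54.6 and 53.3 and then 85.2 and 87.4 in the RAD21 line. Its change was 0.83 ± 0.12 (adjusted p = 4.54e-04) at 1 h and −1.40 ± 0.12 (adjusted p = 3.79e-05) at 10 h, and the 2 lines rose alike in direction (1.00 ± 0.12 in the RAD21 line, adjusted p = 8.89e-05). MCM7 stood at 92.7 and 90.7, then 99.5 and 99.8, then 68.9 and 69.5 in WT cells, and at 97.5 and 96.7, then 99.5 and 99.2 in the RAD21 line. It rose by 1.37 ± 0.15 (adjusted p = 1.14e-04) at 1 h and fell at 10 h (−0.89 ± 0.15, adjusted p = 0.0022), with the AP4M1 promoter in the same region. By fold the 10 h change was 0.0358.

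MCM2 was the member whose 1 h change differed most between the lines. In WT cells it stood at 93.8 and 93.0 at 0 h, 93.9 and 93.5 at 1 h and 55.5 and 50.2 at 10 h, and in the RAD21 line at 80.8 and 67.1 and then 95.8 and 96.4. The 1 h change was 0.02 ± 0.14 (adjusted p = 0.917) in WT cells and 1.11 ± 0.14 (adjusted p = 1.25e-04) in the RAD21 line, where the 0 h lists started lower, and the 10 h change was −1.43 ± 0.14 (adjusted p = 8.73e-05). The region also covers the TPRA1 promoter.

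CDC6, MCM6 and ORC6 rose at 1 h in WT cells (0.88, 0.51 and 0.50), and MCM5, MCM6 and CDC6 fell at 10 h (−1.28, −0.94 and −0.58). By fold MCM6 turned at 1 h (−0.14) and CDC6 at 10 h (0.0335), and with peak-name form as a term neither late change was called (adjusted p = 0.181 for MCM6 and 0.196 for CDC6). MCM4 and MCM5 were called at 1 h in the RAD21 line (1.01 ± 0.15 and 0.89 ± 0.15) and not in WT cells (0.37 ± 0.15, adjusted p = 0.0704, and 0.41 ± 0.15, adjusted p = 0.0565). The MCM4 region also covers the PRKDC promoter, and the ORC6 region that of VPS35. ORC1, whose region also covers PRPF38A, was the only member called higher from 1 h to 10 h. It stood at 90.9 and 89.3 at 0 h, 77.1 and 87.7 at 1 h and 93.9 and 94.2 at 10 h (0.61 ± 0.14 from 1 h to 10 h, adjusted p = 0.00531). Against 0 h, CDT1, ORC6 and MCM4 were not called at 10 h either.

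CDT1 sits with APRT in a merged region of 13187 bp. Over that region it rose at 1 h (1.06 ± 0.16, adjusted p = 7.67e-04) and its 10 h change was 0.08 ± 0.16 (adjusted p = 0.749). With only the peaks that overlap the promoter windows themselves, the changes were 2.03 ± 0.19 (adjusted p = 5.9e-05) and 1.22 ± 0.19 (adjusted p = 0.00149), so that it was called higher at 10 h as well. No call of the other members listed here changed in that setting, which was chosen after the data were seen. A member without a window peak in every list kept the value of its merged region there. The window at the main start of PRIM1 holds no peak in WT 10 h replicate 1, so its 10 h call was not checked at that start.

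Of the factors that activate the helicase (CDC45, MCM10 and the GINS subunits), 2 of 5 rose at 1 h in WT cells and 3 fell at 10 h. GINS2 stood at 63.8 and 61.5 at 0 h, 90.7 and 73.8 at 1 h and 7.92 and 7.05 at 10 h in WT cells, and at 45.2 and 48.8 and then 81.9 and 82.9 in the RAD21 line. It had the second lowest 10 h change of the members (−1.76 ± 0.17, adjusted p = 8.73e-05), after a rise at 1 h (0.66 ± 0.17, adjusted p = 0.013). MCM10 stood at 82.7 and 78.9, then 85.6 and 86.4, then 33.2 and 39.2 in WT cells, and at 53.3 and 55.6, then 84.1 and 83.7 in the RAD21 line. It fell at 10 h (−1.23 ± 0.11, adjusted p = 5.86e-05) and rose at 1 h in the RAD21 line (0.88 ± 0.11, adjusted p = 1.44e-04), while the 1 h change in WT cells was 0.21 ± 0.11 (adjusted p = 0.182).

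GINS3 rose at 1 h (1.10 ± 0.14) and fell at 10 h (−0.88 ± 0.14) in WT cells. CDC45, whose region also covers UFD1, stood above the 87th percentile in all 10 lists and fell at 1 h in the RAD21 line (−0.62 ± 0.21, adjusted p = 0.0405). That call was lost without any 1 of the 4 RAD21 lists and without either WT 0 h or WT 10 h list. The GINS1 region that the rule gave, at another annotated start shared with ABHD12 (chr20:25369964-25372465), was called at neither time against 0 h. The GINS1 region over the main start (chr20:25387523-25389914) stood at 74.0 and 74.0, then 95.8 and 88.3, then 44.8 and 38.7 in WT cells. It rose at 1 h (0.82 ± 0.15, adjusted p = 0.0021) and fell at 10 h (−0.85 ± 0.15, adjusted p = 0.00347), and with it the member counts would be 21 higher and 27 lower.

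DNA polymerase alpha with primase (POLA1, POLA2, PRIM1) lays down primers, polymerase epsilon (POLE2) extends the leading strand, and RFC3 and RFC4 belong to the loader of the PCNA clamp. Of these 6 promoters, 2 rose and 1 fell at 1 h in WT cells, and 4 fell at 10 h. The 1 fall among 6 lies near the 14.8% of all regions that fell at 1 h. PRIM1 stood at 57.5 and 57.1 at 0 h, 69.4 and 75.5 at 1 h and 0.973 and 7.73 at 10 h in WT cells, and at 57.5 and 58.0 and then 64.8 and 66.2 in the RAD21 line. Its 10 h change, −2.06 ± 0.21 (adjusted p = 1.28e-04), was the lowest of all 18757 regions, and its 1 h change in WT cells was 0.41 ± 0.21 (adjusted p = 0.16). The deposited fold at its summit, comparable within a list only, was 3.12 and 5.03 in the 10 h lists. The peak of WT 10 h replicate 1 lay in the merged region, which HSD17B6 shares, but not over the promoter window of PRIM1.

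POLE2 stood at 70.7 and 70.4, then 86.9 and 78.6, then 24.9 and 27.1 in WT cells, and at 73.4 and 67.5, then 72.0 and 78.6 in the RAD21 line. It rose at 1 h (0.42 ± 0.13, adjusted p = 0.0325) and fell at 10 h (−1.18 ± 0.13, adjusted p = 2.39e-04) in WT cells, and its 1 h change in the RAD21 line was 0.15 ± 0.13 (adjusted p = 0.437). POLA1, the catalytic subunit, fell at both times in WT cells, from 71.5 and 71.2 to 58.8 and 55.4 and then 47.4 and 52.0 (−0.38 ± 0.11, adjusted p = 0.0207, and −0.57 ± 0.11, adjusted p = 0.00511). RFC4 was called in none of these 4 comparisons (0.22 ± 0.15 at 1 h and −0.15 ± 0.15 at 10 h in WT cells).

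Among the nucleotide enzymes (RRM1 and RRM2, the subunits of ribonucleotide reductase; TYMS, thymidylate synthase; TK1, thymidine kinase), 2 of 4 rose at 1 h in each line, and 3 fell at 10 h. TYMS stood at 53.7 and 46.5 at 0 h, 90.4 and 93.1 at 1 h and 64.0 and 59.8 at 10 h in WT cells, and at 78.8 and 79.1 and then 90.5 and 91.7 in the RAD21 line. It rose at 1 h in both lines (1.39 ± 0.12, adjusted p = 4.29e-05, and 0.54 ± 0.12, adjusted p = 0.00447). At 10 h its place was above that at 0 h in both lists, and that difference did not pass the test (0.30 ± 0.12, adjusted p = 0.0917). RRM2 fell from 90.2 and 87.1 at 0 h to 46.4 and 42.7 at 10 h (−1.35 ± 0.23, adjusted p = 0.00271). The TK1 region also covers the AFMID promoter.

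UHRF1, which brings DNA methylation to new strands, and SLBP, which binds the stem-loop of histone mRNAs, make up the rest. UHRF1 stood at 49.1 and 45.2, then 76.7 and 88.4, then 59.0 and 62.3 in WT cells (1.03 ± 0.14, adjusted p = 3.87e-04 at 1 h), and at 92.7 and 93.2 in the RAD21 line at 0 h. SLBP lies in a merged region of 20548 bp with TACC3 and TMEM129 and stayed above the 86th percentile in every list. It fell at 10 h (−0.68 ± 0.17, adjusted p = 0.0185), a change that turned by fold (0.43) and was not called with peak-name form as a term (adjusted p = 0.0648).

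The ranks by −log10 p and by pileup gave the same direction and call for each of the 22 members called at 1 h and the 26 called at 10 h in WT cells. The pileup was recovered from the same p-values, with the fold, so the 2 rankings are not independent. With peak-name form as a term in the fit, 21 members rose and 4 fell at 1 h (background 16% and 16.1%) and 0 rose and 21 fell at 10 h (2.06% and 2.34%), and 6 of the 26 late losses (CDC6, MCM6, GINS3, POLA1, RFC3 and SLBP) were no longer called. WT 1 h alone holds both forms, so the term rests on the difference between its 2 lists.

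**Figure D4:**
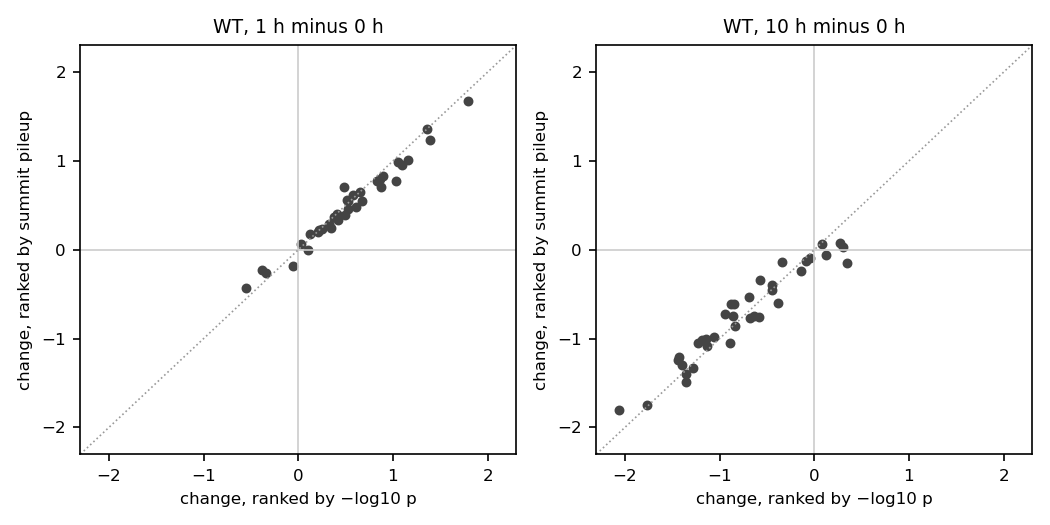
Change in normal score ranked by −log10 p-value (horizontal) against that ranked by recovered summit pileup (vertical), for the 36 members at WT 1 h and WT 10 h against 0 h. Points lie close to the dotted diagonal, from −2.06 against −1.81 for PRIM1 at 10 h to 1.80 against 1.67 for MCMBP at 1 h.

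The early responses of the 2 lines share no library. Of the members, 12 rose in both, which is 60% of the 20 in WT cells and 66.7% of the 18 in the RAD21 line. Over all 36 members 55.6% rose in WT cells and 50.0% in the RAD21 line, so these shares lie near what the members show in each line alone. Of all regions, 661 rose in both, 24.6% of those in WT cells and 24.5% of those in the RAD21 line. Among the members, 1 rose in WT cells and fell in the RAD21 line (E2F8), and 1 did the reverse (CCNE1). The difference between the 2 responses, tested as an interaction term, was higher in the RAD21 line for 6 promoters and lower for 6, that is 16.7% in each direction close to the background of 11.7% and 11%, and ranks by fold called 0 members and 0% of all regions (unadjusted: 4 and 0 members). Higher were MCM2 (1.09), CCNE1 (0.95), MCM10 (0.67), MCM4 (0.64), RFC3 (0.51) and TK1 (0.47). Lower were E2F8 (−1.01), GINS3 (−0.89), TYMS (−0.85), MCM7 (−0.77), UHRF1 (−0.77) and CDT1 (−0.68). The counts moved with single lists. Without WT 0 h replicate 1, 2 were higher, and without WT 0 h replicate 2, either WT 10 h list or any list of the RAD21 line, 3 were. Without WT 0 h replicate 2, RAD21 0 h replicate 1 or RAD21 1 h replicate 2, 3 were lower, and without WT 1 h replicate 1, 10 were.

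Before Nutlin-3a the RAD21 line had 5 promoters higher and 8 lower than WT cells, close to the background of 16.8% and 20.7%. Higher were UHRF1 (1.54 ± 0.14), E2F8 (0.82 ± 0.13), TYMS (0.80 ± 0.12), E2F2 (0.56 ± 0.16) and MCM7 (0.50 ± 0.15). Lower were MCM2, MCM3, MCM10, CCNE1, RFC3, MCM6, POLA1 and ORC1, with changes from −0.85 to −0.38. All 5 that were higher also rose at 1 h in WT cells, a comparison that shares the WT 0 h lists. Peak-name form and line cannot be told apart at 0 h, whichever value is ranked. By pileup 8 were higher and 13 lower (background 21.3% and 29.5%). Without WT 0 h replicate 1, WT 0 h replicate 2 or RAD21 0 h replicate 1, 3 were higher, and without either WT 1 h list 8 were; without WT 0 h replicate 1, 5 were lower.

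At 1 h UHRF1 was higher in the RAD21 line (0.78 ± 0.14, adjusted p = 0.00567) and GINS3, CDC45 and MCM3 were lower (−0.83, −0.78 and −0.60), where 5.68% and 6.15% of all regions were. Without WT 1 h replicate 1, 2 were higher and 6 lower, and without WT 1 h replicate 2, 5 and 8. Without RAD21 1 h replicate 1 the limma counts were 0 and 0, and without RAD21 1 h replicate 2, 1 was lower.

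The promoters with and without an E2F match are given as a description, without a test. Of 20 with a match, 15 rose at 1 h in WT cells (median change 0.85), and of 13 without, 4 did (0.35), where 14.3% of all regions rose. In the RAD21 line 13 of 20 and 3 of 13 rose (0.60 and 0.20), where 14.4% of all regions rose. At 10 h the groups lay closer together, with 15 of 20 and 9 of 13 lower (−0.86 and −0.69), against 8.56% of all regions. MCM10, PRIM1 and MYBL2, which fell strongly at 10 h, hold none of these exact letters in the window. Other forms of an E2F site were not searched, so a promoter without a match may still hold a site.

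Of another 55 genes of G1/S and replication, 25 rose and 2 fell at 1 h in WT cells (45.5% and 3.64%, against 14.3% and 14.8% of all regions). At 1 h in the RAD21 line 28 rose and 4 fell (50.9% and 7.27%, against 14.4% and 13.4%). At 10 h 3 rose and 21 fell (5.45% and 38.2%, against 9.7% and 8.56%), with a median change of −0.33. The difference between these genes and the members was not tested. UNG, a uracil glycosylase, had the smallest p-value among those that rose at 1 h in WT cells, going from 42.6 and 47.1 to 81.3 and 84.4 (1.08 ± 0.12, adjusted p = 1.35e-04). DNMT1, the maintenance DNA methyltransferase, went from 69.9 and 73.1 at 0 h to 94.9 and 92.8 at 1 h and 28.6 and 24.0 at 10 h, and HELLS, a chromatin remodeller, from 71.4 and 74.6 to 38.5 and 38.4 at 10 h. RB1, which restrains E2F, and DBF4, the partner of the origin-firing kinase CDC7, were lower at 1 h (−0.76 ± 0.14, adjusted p = 0.00161, and −0.47 ± 0.13, adjusted p = 0.0162). CDK6, a G1 kinase, and ORC2 were higher at 10 h (0.91 ± 0.24, adjusted p = 0.0213, and 0.47 ± 0.13, adjusted p = 0.0311). By pileup these changes were 0.35 and 0.24. CDK6 stood at 19.2 and 19.9 at 0 h, 25.4 and 65.2 at 1 h and 52.8 and 50.8 at 10 h. It was thus low in each WT list whose peak names lack the word input, and its late change cannot be told apart from that form.

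Among all regions, 14.3% rose and 14.8% fell at 1 h in WT cells, and 9.7% rose and 8.56% fell at 10 h. Of 34 G2/M genes, 8 rose and 4 fell at 1 h and 3 rose and 16 fell at 10 h in WT cells (medians 0.12 and −0.40). Of 29 tested p53 targets, 9 rose and 1 fell at 1 h, and 9 rose and none fell at 10 h in the limma fit, with 2 lower at an unadjusted p under 0.05 (medians 0.18 and 0.23).

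H3K27ac peaks covered the start site of 33 to 37 of the 37 members in each list. The summit lay at a median of 160 to 210 bp downstream of the start. It was downstream in 67.6% to 78.4% of members in the 8 lists of 0 and 1 h and in 58.3% and 61.1% in the WT 10 h lists, where all protein-coding genes had 70.3% and 69.9%. This was not tested.

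**Figure D5:**
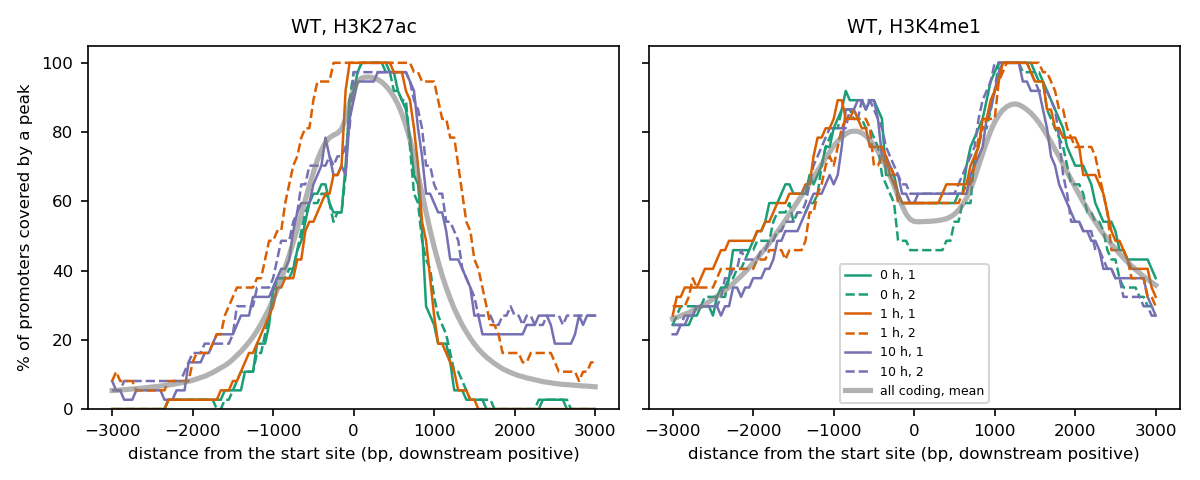
Percent of the 37 members whose peaks cover each position within 3000 bp of the start site in WT cells, for H3K27ac (left) and H3K4me1 (right) at 0, 1 and 10 h (colours), with replicate 1 solid and replicate 2 dashed, and the mean over lists for all protein-coding genes in grey. H3K27ac cover is highest at and just downstream of the start, while H3K4me1 cover dips there, to 45.9% to 62.2% of members.

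H3K4me1 in WT cells lay on the flanks. Its peaks covered the start site of 17 to 23 of 37 members (45.9% to 62.2%), within a similar span to that of all protein-coding genes (45.4% to 63.7%). For 16 members, E2F1, RBL1, MCM2 and GINS2 among them, the start was covered in all 6 lists, for 9 in some, and for 12 in none. The 12, which include MCMBP, MCM3, TYMS and CDC6, had a gap with a median of 460 bp upstream and 860 bp downstream of the start.

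Within 3000 bp of the starts lay 55 H3K4me1 regions, of which 53 were called in all 6 lists and stood for all 37 genes, at median percentiles of 59.6 to 65.6 per list among 60476 regions. None was called at 1 h or at 10 h against 0 h in the limma fit, where the background was 0.595% and 0.638%, and 7 and 4 had an unadjusted p under 0.05 (13.2% and 7.55%, against 15.5% and 8.66% of all regions). In simulated H3K4me1 lists the fit recovered 0% of changes of 1 in normal score in both comparisons. Of changes of 2 it recovered 55.5% and 54%. Flank changes as large as those of H3K27ac at most members could thus have gone uncalled. From 1 h to 10 h 1 was called, against a background of 3.05%. It lies at RFC4 (chr3:186521613-186527107) and is named after its value was seen. It stood at 77.5 and 81.7 at 0 h, 45.2 and 59.1 at 1 h and 81.3 and 78.1 at 10 h (0.78 ± 0.19, adjusted p = 0.0391), and it was not called when any of the 6 lists was left out.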

How the data were processed

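H3K27ac and H3K4me1 were profiled by ChIP-seq, and the authors trimmed paired reads (Trim Galore 0.6.6), mapped them to GRCh37 (Bowtie2 2.3.2) and called peaks per library (MACS2 2.2.7.1, narrow and broad mode, against input, per the study's methods). The deposited values used are each peak's −log10 p-value and −log10 q-value and its fold, a ratio over local background. They depend on their own library and were ranked within lists. Depth was not used here; the 10 input libraries were not analysed. Groups and replicate numbers came from the labels.

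Peaks of a mark were merged at 1 bp overlap. A gene was represented by the region that covers most of its promoter windows. Normal scores of ranks were fitted with limma 3.58.1 (R 4.3.3; eBayes with trend) over all regions called in every list, 5 groups in 1 fit for H3K27ac and 3 for H3K4me1, Benjamini-Hochberg adjusted over all regions, with a threshold of 0.05. An exact two-sided permutation test of 2 lists against 2 has a smallest p of 0.333, and none was run. The p-values measure the spread between the deposited replicates. Members and gene lists were chosen with earlier results of these data known. Members named list by list were the 12 with the smallest p-value over WT 1 h, WT 10 h, RAD21 line 1 h and the interaction, plus CCNE2; further members were added after their values were seen. Named non-members had the 2 smallest p-values per direction at 1 h and 10 h in WT cells, and MDM2 and CDKN1A were a check. Scripts were tested on simulated data. Peak ends lay within GRCh37 lengths on 25 of 25 chromosomes. Other settings are given at the end. Some peak names carry other replicate numbers than the labels, and those of RAD21 0 h replicate 2 carry 2 numbers.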

Additional observations from a re-analysis of the deposited data

Results flagged for a closer look

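In 12 member promoters the 1 h change of H3K27ac differed between the lines, by the interaction term of the limma fit over all regions (adjusted p under 0.05). The 6 higher and 6 lower are 16.7% of members each, close to the 11.7% and 11% of all regions. Ranks by fold called 0 and 0, and without single lists 2 to 8 were higher and 3 to 10 lower. Each value is the RAD21 line's change less the WT change, so that positive values mean a larger gain in the RAD21 line. They were 1.09 for MCM2, 0.95 for CCNE1, 0.67 for MCM10, 0.64 for MCM4, 0.51 for RFC3 and 0.47 for TK1, and −1.01 for E2F8, −0.89 for GINS3, −0.85 for TYMS, −0.77 for MCM7, −0.77 for UHRF1 and −0.68 for CDT1. The 0 h lists already differed between the lines for E2F8, UHRF1, TYMS and MCM7 (higher in the RAD21 line) and for MCM2, MCM10, CCNE1 and RFC3 (lower), and the term shares those lists. Peak-name form and line cannot be told apart at 0 h. TK1 and CDT1, both at an adjusted p of 0.0495, were not called with the replicate block.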

How the results depend on the processing

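Called members kept their direction and call in 2059 of 2321 refits, lost the call in 255 and changed sign in 7. Some of these refits left out a list that was not in the comparison, and so bear little on the call. The pooled number also hides the ranks by fold. There, of the members called at 1 h in WT cells, 21 lost the call and 1 changed sign, and 20 lost it in the RAD21 line. Ranked by fold, counts (higher and lower) were 0 and 0 at 1 h in WT cells, 1 and 16 at 10 h, 0 and 13 from 1 h to 10 h, 0 and 0 for 1 h in the RAD21 line, 3 and 5 between lines at 0 h, 0 and 0 between lines at 1 h and 0 and 0 for the interaction (unadjusted 4 and 0). Sign changed by fold for MCM6 at 1 h (−0.14), CDC6 (0.0335), MCM7 (0.0358) and SLBP (0.43) at 10 h, SLBP from 1 h to 10 h (0.13) and ORC1 between lines at 0 h (0.27), and with peak-name form as a term for MCM6 between lines at 0 h (0.084). The cause was not tested.

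Peak-name form as a term gave 4 lower at 1 h in WT cells and 2 and 6 between lines at 1 h. Pileup ranks gave 8 and 13 between lines at 0 h and 4 and 6 at 1 h. Pileup with the term, a setting chosen after seeing the data, gave 4 lower at 1 h in WT cells, 0 higher from 1 h to 10 h and 4 and 6 between lines at 1 h. Peaks over the promoter window alone, likewise added later, gave 1 higher at 10 h (CDT1). The H3K4me1 call at RFC4 was lost by fold (0) and under a q-value filter, 5 or more on the −log10 scale (0).

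Leaving out 1 list at a time gave 14 to 22 higher and 0 to 4 lower at 1 h in WT cells, 0 to 3 and 21 to 28 at 10 h, 1 to 2 and 29 to 31 from 1 h to 10 h, 14 to 21 and 0 to 2 in the RAD21 line, 3 to 8 and 5 to 11 between lines at 0 h, 0 to 5 and 0 to 8 at 1 h, 2 to 8 and 3 to 10 for the interaction, and 0 to 0 for H3K4me1 from 1 h to 10 h. At 1 h in WT cells 0 were lower without WT 0 h replicate 1, 1 without WT 0 h replicate 2 and 4 without WT 1 h replicate 2. At 10 h 3 were higher without either WT 1 h list, and from 1 h to 10 h 2 without WT 1 h replicate 2. In the RAD21 line 0 were lower without any 1 of its 4 lists and 1 without either WT 0 h or WT 10 h list.

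Replicate numbers did not pair the lists: deviations of same-numbered lists correlated at −0.0501 to 0.0453 (H3K27ac, 10 pairs) and 0.00084 to 0.00739 (H3K4me1, 3 pairs). With the replicate block 20 rose and 2 fell at 1 h, 0 and 25 at 10 h, 1 and 32 from 1 h to 10 h, 18 and 2 in the RAD21 line, 5 and 7 between lines at 0 h, 1 and 3 at 1 h and 5 and 5 for the interaction; H3K4me1 gave 0, 0 and 1.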
